A study of Mus musculus with 8 samples.

Results

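The inhibitors of cyclin-dependent kinases (CDKs) were examined in mouse pro-B cells with and without menin. They comprise 7 genes, Cdkn1a, Cdkn1b and Cdkn1c of the CIP/KIP family and Cdkn2a, Cdkn2b, Cdkn2c and Cdkn2d of the INK4 family. Every probe set whose single platform symbol is one of these genes was taken, whatever its values, which gave 9 of the 45037 probe sets on the array and 7 of the 18193 genes it names. A probe set is a group of short oligonucleotides that together read 1 transcript or several transcripts of a gene. Cdkn1a and Cdkn1b have 2 probe sets each and the other genes 1 each.

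CDK inhibitors restrain the kinases that drive a cell through the division cycle. CIP/KIP proteins bind cyclin-CDK complexes, above all those of CDK2, whereas INK4 proteins bind CDK4 and CDK6 and keep them from the D-type cyclins, so that the retinoblastoma protein stays unphosphorylated and E2F target genes stay silent. In B-cell progenitors, rounds of division and immunoglobulin gene rearrangement are known to alternate, and CDK inhibitors are among the brakes on division. In pancreatic islets menin together with the histone methyltransferase MLL is known to maintain Cdkn1b and Cdkn2c transcription.

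The study asked which genes depend on menin, the product of Men1, in early B-cell progenitors of bone marrow. RNA came from sorted Fraction B pro-B cells (B220+ CD43+ HSA+ BP-1-) of 4 control mice, MenF/F with no Cre, and 4 menin-deficient mice, Rag1-cre;MenF/F. All 8 mice carried floxed Men1 and were 2 to 3 weeks old. Each mouse, labelled as a separate biological replicate, gave 1 Affymetrix whole-genome mouse expression array. Rag1-cre expresses Cre under the control of Rag1, a gene active in early lymphocyte progenitors. It was present in every menin-deficient mouse and in no control, so what Cre does and what the loss of menin does cannot be told apart.

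Values were deposited on a log2 scale and run from 2.08, the lowest value of the table, to 17.4. Men1 was lower in all menin-deficient arrays, with log2 values of 7.85 to 8.50 against 9.19 to 9.81 in controls on its brightest probe set (difference -1.39, limma adjusted p = 0.00617). The sources used here do not place the Men1 probe sets relative to the floxed exons. All 15 genes of the pro-B identity list on the array (among them Pax5, Ebf1 and Il7r) passed the filter for low values. That filter (2.09 to 2.10) lies just above the lowest value, so passing it says little about level. The list includes Enpep, which encodes BP-1, the marker the sort excluded, at 11.4 in controls and 11.7 in menin-deficient arrays. Judged by Xist and Eif2s3y, 1 control and 2 menin-deficient mice were male. With 4 arrays in each group their number limits the precision, and the fold change of a gene near the lowest value is compressed.

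In menin-deficient pro-B cells the CDK inhibitors did not move as a block. Cdkn1c (p57) rose 2.14-fold, Cdkn1a (p21) rose 2.10-fold on 1 of its 2 probe sets, Cdkn1b (p27) fell 1.55-fold on 1 of its 2 probe sets, and Cdkn2c (p18) and Cdkn2d (p19) did not pass the test. Cdkn2a (p16 and Arf) and Cdkn2b (p15) were at the lowest value of the table on all 8 arrays. Of the 9 probe sets, 7 passed the filter on low values (above the 40th percentile of their own array on at least 4 arrays) and were tested. Among these, 2 were higher and 1 was lower at a limma adjusted p under 0.05, where 9.34% of the 26790 tested probe sets were higher, 4.87% were lower and 14.2% passed in either direction. The median difference was 0.17 over the 7 tested probe sets and 0.04 over all tested probe sets. In 4 of the 7 the control and menin-deficient values did not overlap, as in 21.4% of all tested probe sets. The 4 include Cdkn1a 1424638_at, which did not pass and whose groups were only 0.0006 apart.

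**Figure D1:**
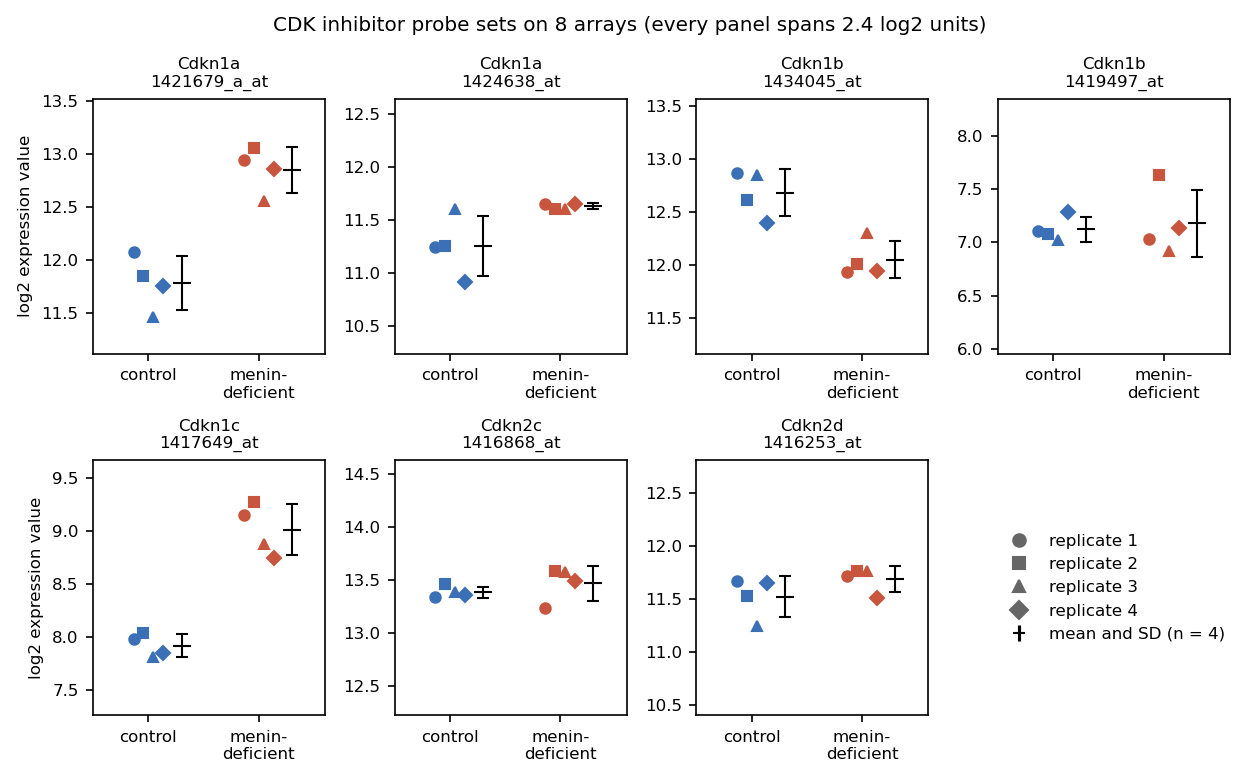
Log2 expression value of each of the 7 tested CDK inhibitor probe sets (vertical axis, each panel spanning the same log2 range) in 4 control and 4 menin-deficient arrays. Markers are replicates, and bars are the mean and SD of each group. Cdkn1a 1421679_a_at (11.8 against 12.8) and Cdkn1c (7.92 against 9.01) lie higher in all menin-deficient arrays, Cdkn1b 1434045_at lies lower, and the values of Cdkn2c and Cdkn2d overlap.

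The sequence just upstream of the transcription start is shown for the inhibitors that respond to p53 or to menin in other tissues, because 1 of 2 Cdkn1a probe sets rose, 1 of 2 Cdkn1b probe sets fell and Cdkn2c did not pass the test. Each window is the 250 bases before a start in RefSeq (GRCm38.p6), 5′ to 3′ along the gene. RefSeq windows were found for 6 of the 7 genes, 9 windows in all. In the first Cdkn1a window (chr17:29090729-29090978, plus strand) capitals mark a match to the p53 response element. In the second Cdkn1a window (chr17:29093519-29093768, plus strand), in Cdkn1b (chr6:134920151-134920400, plus strand) and in Cdkn2c (chr4:109666757-109667006, minus strand) they mark GC boxes, the letters bound by SP1-family factors.
Cdkn1a, first start: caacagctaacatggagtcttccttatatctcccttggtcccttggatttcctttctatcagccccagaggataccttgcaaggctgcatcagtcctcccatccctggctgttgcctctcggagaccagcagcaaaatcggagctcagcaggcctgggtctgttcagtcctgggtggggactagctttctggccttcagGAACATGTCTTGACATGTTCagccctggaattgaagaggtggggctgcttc
Cdkn1a, second start: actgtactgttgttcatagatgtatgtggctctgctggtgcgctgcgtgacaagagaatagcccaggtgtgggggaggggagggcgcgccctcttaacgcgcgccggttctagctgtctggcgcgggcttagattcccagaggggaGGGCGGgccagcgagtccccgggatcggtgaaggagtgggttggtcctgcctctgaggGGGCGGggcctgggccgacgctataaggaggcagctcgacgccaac
Cdkn1b: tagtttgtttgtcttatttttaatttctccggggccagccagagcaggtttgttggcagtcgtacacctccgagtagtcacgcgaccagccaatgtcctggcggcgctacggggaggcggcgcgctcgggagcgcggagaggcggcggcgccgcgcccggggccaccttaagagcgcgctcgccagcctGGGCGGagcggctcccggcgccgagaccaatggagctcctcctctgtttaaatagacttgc
Cdkn2c: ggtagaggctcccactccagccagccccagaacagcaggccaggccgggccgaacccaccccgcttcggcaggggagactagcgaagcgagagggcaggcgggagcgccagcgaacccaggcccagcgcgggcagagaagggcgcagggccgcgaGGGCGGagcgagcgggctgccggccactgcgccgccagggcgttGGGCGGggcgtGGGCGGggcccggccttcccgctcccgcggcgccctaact
The p53 consensus, a pair of decamers, was searched on both strands with at most 1 mismatch. The match in the first Cdkn1a window has 1 mismatch and ends 31 bases before the start, and 0.0761% of all 32851 promoter windows of this length hold such a match. GC boxes were searched as GGGCGG or, on the other strand, CCGCCC. The second Cdkn1a window holds 2, Cdkn1b holds 1 and the printed Cdkn2c window holds 3, and 32.7% of all windows hold at least 1. CpG pairs numbered 2 in the first and 19 in the second Cdkn1a window, 28 in Cdkn1b and 29 in the printed Cdkn2c window, against a median of 6 over all windows. A second Cdkn2c start (chr4:109665373-109665622, minus strand), not printed, has a window with 0 GC boxes and 6 CpG pairs. A match describes the letters only, and which start was used in these cells was not measured.

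Cdkn1a encodes p21, the CIP/KIP inhibitor best known as a transcriptional target of p53. On probe set 1421679_a_at its log2 values read 12.07, 11.85, 11.46 and 11.75 in controls and 12.94, 13.05, 12.55 and 12.86 in menin-deficient arrays, in the order of replicates 1 to 4 as for all values below. Every menin-deficient array lay above every control array, with a gap of 0.48 between the groups. The difference was 1.07 (SE 0.16, 95% interval 0.70 to 1.44, limma adjusted p = 0.00892), a 2.10-fold rise with an interval of 1.62-fold to 2.71-fold. Of all tested probe sets, 2.99% had a larger difference in either direction. It passed under 19 of 20 alternatives (adjusted p 0.00284 to 0.0850), the exception being the 5 female mice alone, where the difference was 0.81 (limma adjusted p = 0.0850).

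The second Cdkn1a probe set, 1424638_at, gave a smaller difference. Its log2 values were 11.24, 11.25, 11.60 and 10.91 in controls and 11.65, 11.60, 11.60 and 11.65 in menin-deficient arrays. Control replicate 3 reached the level of the lowest menin-deficient array, while the other 3 controls lay below all of them, and the SD was 0.282 in controls and 0.028 in menin-deficient arrays. The difference was 0.38 (SE 0.13, 95% interval 0.06 to 0.69), and it missed the threshold (limma adjusted p = 0.108). Without control replicate 3 it was 0.50 and passed (limma adjusted p = 0.0248), while over all 20 alternatives the adjusted p ran from 0.0248 to 0.224. The responses of the 2 Cdkn1a probe sets differed by -0.69 (second minus first, 95% interval -1.20 to -0.18, limma adjusted p = 0.0687), which missed the threshold, whereas 16.8% of 10315 such pairs within 5824 genes passed it. The sources used here do not say which Cdkn1a transcripts each probe set reads.

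Cdkn1b encodes p27, whose level is set largely by regulated protein degradation as well as by transcription. On probe set 1434045_at the log2 values were 12.86, 12.61, 12.85 and 12.39 in controls and 11.93, 12.01, 12.30 and 11.94 in menin-deficient arrays. All menin-deficient arrays lay below all controls, but the gap, between control replicate 4 and menin-deficient replicate 3, was only 0.10. The difference was -0.63 (SE 0.13, 95% interval -0.94 to -0.32, limma adjusted p = 0.0246), a 1.55-fold fall with an interval of 1.25-fold to 1.92-fold. This call depended on single arrays: the difference stayed between -0.73 and -0.57 when 1 array was left out, and the adjusted p exceeded 0.05 without control replicate 1 (0.0653) or 3 (0.0534) and without menin-deficient replicate 1 (0.0543), 2 (0.0714) or 4 (0.0642). It was 0.0602 with no filter on low values, 0.0538 with the replicate number as a block, and 0.238 in female mice alone, where the difference was -0.50. Over all 20 alternatives it ran from 0.0131 to 0.238.

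The other Cdkn1b probe set, 1419497_at, showed no such fall. Its values were 7.11, 7.08, 7.02 and 7.29 in controls and 7.03, 7.64, 6.92 and 7.14 in menin-deficient arrays, with menin-deficient replicate 2 highest and the rest mixed between the groups. The difference was 0.06 (SE 0.16, 95% interval -0.32 to 0.43, limma adjusted p = 0.854), an interval that does not reach -0.63. The difference between the responses of the 2 Cdkn1b probe sets was 0.69 (95% interval 0.16 to 1.21), which missed the threshold at a limma adjusted p of 0.0741. Without control replicate 4 it was 0.84 (adjusted p = 0.0466) and without menin-deficient replicate 3 it was 0.86 (adjusted p = 0.0420), both past the threshold, in a range of 0.0420 to 0.432 over all 20 alternatives.

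Cdkn1c encodes p57, an imprinted CIP/KIP inhibitor expressed from the maternal allele and known for holding stem cells in quiescence. Its log2 values on probe set 1417649_at were 7.98, 8.04, 7.81 and 7.85 in controls and 9.15, 9.27, 8.88 and 8.75 in menin-deficient arrays. The groups were separated by 0.71, the widest gap among the 7 probe sets. The difference was 1.09 (SE 0.12, 95% interval 0.80 to 1.39, limma adjusted p = 0.00440), a 2.14-fold rise with an interval of 1.74-fold to 2.61-fold, and 2.79% of all tested probe sets had a larger difference in either direction. It passed the threshold under all 20 alternatives run for it, with differences of 0.86 to 1.18 and adjusted p values of 0.00120 to 0.0467. It was the single CDK inhibitor call that passed in the 5 female mice alone.

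Cdkn2c encodes p18, an INK4 inhibitor of CDK4 and CDK6. Its log2 values were 13.34, 13.46, 13.39 and 13.36 in controls and 13.24, 13.59, 13.58 and 13.49 in menin-deficient arrays. Menin-deficient replicate 1 was the lowest of all 8 arrays and the other 3 were the highest, so the groups overlapped. The difference was 0.09 (SE 0.08, 95% interval -0.11 to 0.28, limma adjusted p = 0.531). The lower bound corresponds to a fall of at most 1.08-fold, so the interval leaves out a fall of the size of Cdkn1b 1434045_at.

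Cdkn2d encodes p19, the other INK4 inhibitor above the filter. Its values were 11.67, 11.53, 11.25 and 11.65 in controls and 11.72, 11.77, 11.77 and 11.51 in menin-deficient arrays, and menin-deficient replicate 4 lay below 3 of the 4 controls. The difference was 0.17 (SE 0.11, 95% interval -0.09 to 0.42, limma adjusted p = 0.353).

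Cdkn2a, which encodes p16 and the p53-stabilising Arf protein, and Cdkn2b, which encodes p15, had log2 values of 2.08 on every array. Both were below the filter and were not tested. Between 39.0% and 39.6% of all probe sets lay within 0.01 of that lowest value on each array, so the arrays give no level for either gene in either group and cannot show whether one lay below the other.

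**Figure D2:**
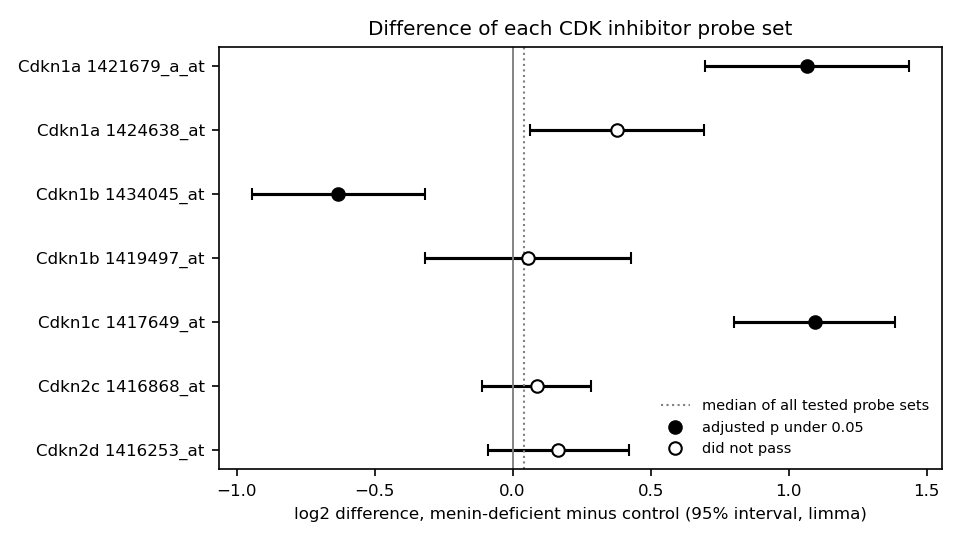
Log2 difference, menin-deficient minus control, of each tested CDK inhibitor probe set (horizontal axis) with its 95% interval from limma, n = 4 arrays in each group. Filled points passed an adjusted p of 0.05, and the dotted line is the median of all tested probe sets (0.04). The intervals of both Cdkn1a probe sets and of Cdkn1c lie above 0, that of Cdkn1b 1434045_at lies below 0, and the remaining 3 include 0.

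The 3 calls kept their direction when the arrays were rescaled. Centring every array on its median tested probe set moved all differences by 0.06 and gave 1.01 for Cdkn1a 1421679_a_at, -0.69 for Cdkn1b 1434045_at and 1.04 for Cdkn1c, and all 3 still passed. Over all probe sets the same step changed the split of calls from 2503 higher and 1305 lower to 1700 higher and 1552 lower. With sex as a covariate the 3 differences were 1.07, -0.63 and 1.05 with limma adjusted p values of 0.0197, 0.0456 and 0.0101.

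**Figure D3:**
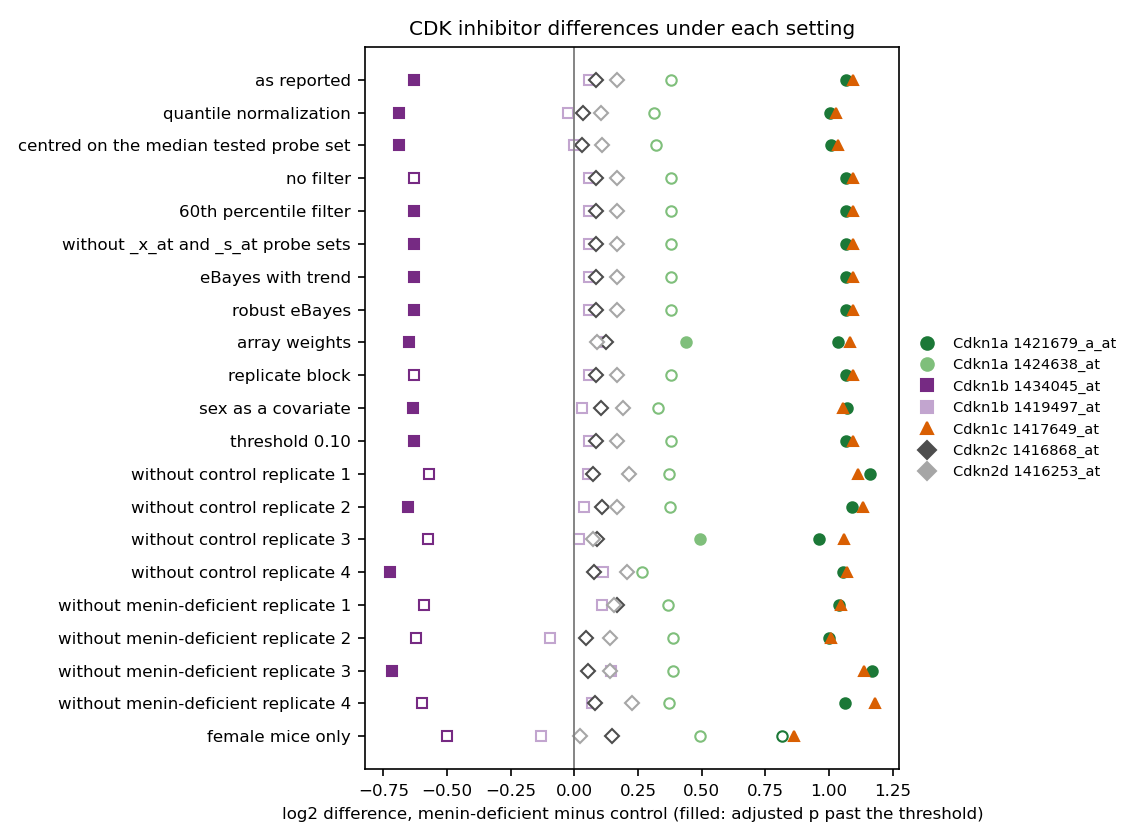
Log2 difference of each tested CDK inhibitor probe set (horizontal axis) as reported and under 20 other settings (vertical axis), filled where the adjusted p passed that setting's threshold. Cdkn1a 1421679_a_at stays between 0.81 and 1.17, Cdkn1c between 0.86 and 1.18 and Cdkn1b 1434045_at between -0.73 and -0.50, and the last is unfilled under 8 of the 20.

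For genes around the inhibitors, the brightest probe set past the filter stood for each gene. Of the 11885 genes tested, 16.2% were higher and 5.17% lower, with a median difference of 0.11, and centring on the median tested gene shifted every difference by 0.13 and changed the calls from 1922 higher and 614 lower to 911 higher and 971 lower. Of 19 tested cyclins, CDKs and their direct regulators, 3 rose, 2 fell and 14 did not pass, with a median of 0.17, to be read beside those shares over all genes. After centring, 2 rose and 2 fell. Cdk4, the partner of D-type cyclins and the target of INK4 proteins, rose from 15.0 ± 0.095 to 15.4 ± 0.037 (mean ± SD of log2 values, n = 4 each; difference 0.40, limma adjusted p = 0.00502), with differences of 0.35 and 0.55 on the remaining probe sets of Cdk4. Mnat1, a subunit of the CDK-activating kinase, rose by 0.54 (adjusted p = 0.00874). In the fit of all probe sets, Cdc25c was called higher on a further probe set (0.68, limma adjusted p = 0.0492), its brightest differing by 0.26.

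Among the cyclins, Ccne2, an E-type cyclin that activates CDK2, fell from 12.9 ± 0.208 to 12.3 ± 0.239 (difference -0.58, limma adjusted p = 0.0326). That call was lost when any of 6 arrays (control replicates 1, 2 and 4, menin-deficient replicates 2, 3 and 4) was left out, at adjusted p values of 0.0692 to 0.0868. Ccne1, the other E-type cyclin, was called lower on a probe set of the _x_at type, which can also match other transcripts (-0.37, adjusted p = 0.0121), but its second probe set differed by 0.25. Ccnd2, the D-type cyclin, was called higher (0.60, adjusted p = 0.0457) but not after centring, nor when any array but control replicate 2 was left out (0.0600 to 0.111), and its other probe sets ran from -0.44 to 0.49. Control replicate 2 of Ccnd2 lay far above the other 3 controls. Cdk2 (0.16), Cdk6 (0.10), Ccnd1 (0.71) and Ccnd3 (0.22) did not pass, with limma adjusted p values of 0.398, 0.435, 0.145 and 0.281.

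Downstream of the kinases, 1 of 12 tested RB and E2F genes rose and the other 11 did not pass, beside 16.2% higher and 5.17% lower over all genes. The gene that rose, Tfdp1, the DNA-binding partner of E2F proteins, differed by 0.42 (limma adjusted p = 0.00597). After centring, 1 of the 12 rose and 1 fell. Of 25 proliferation genes 3 fell and 22 did not pass, with a median of 0.08, to be read beside the same shares. At an unadjusted limma p under 0.05, 5 were higher and 3 lower. The 3 that fell were Cdc20 (-0.28) and Mcm5 (-0.20), both on _x_at probe sets, and Kif11 (-0.37). In each another probe set of the gene pointed the other way without passing (0.24, 0.16 and 0.40). In the fit of all probe sets, further probe sets were called higher for Mcm3 (0.42) and Mcm7 (0.28 on each). Further ones, both of the _x_at type, were called lower for Mcm4 (-0.75) and Mcm6 (-0.74). The brightest probe sets differed by 0.08 for Mcm3, 0.13 for Mcm7, 0.01 for Mcm4 and 0.18 for Mcm6 and did not pass. The third probe sets of Cdc20 and Kif11 differed by -0.09 and -0.32, and that of Mcm5 by 0.04. Kif11 lost its call without any 1 of 6 arrays (control replicates 1, 2 and 3, menin-deficient replicates 1, 3 and 4), at 0.0917 to 0.108. Mki67, which encodes the proliferation marker Ki-67, differed by -0.06 (adjusted p = 0.673). The mean log2 value over the proliferation genes was 13.4 to 13.6 in both groups.

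**Figure D4:**
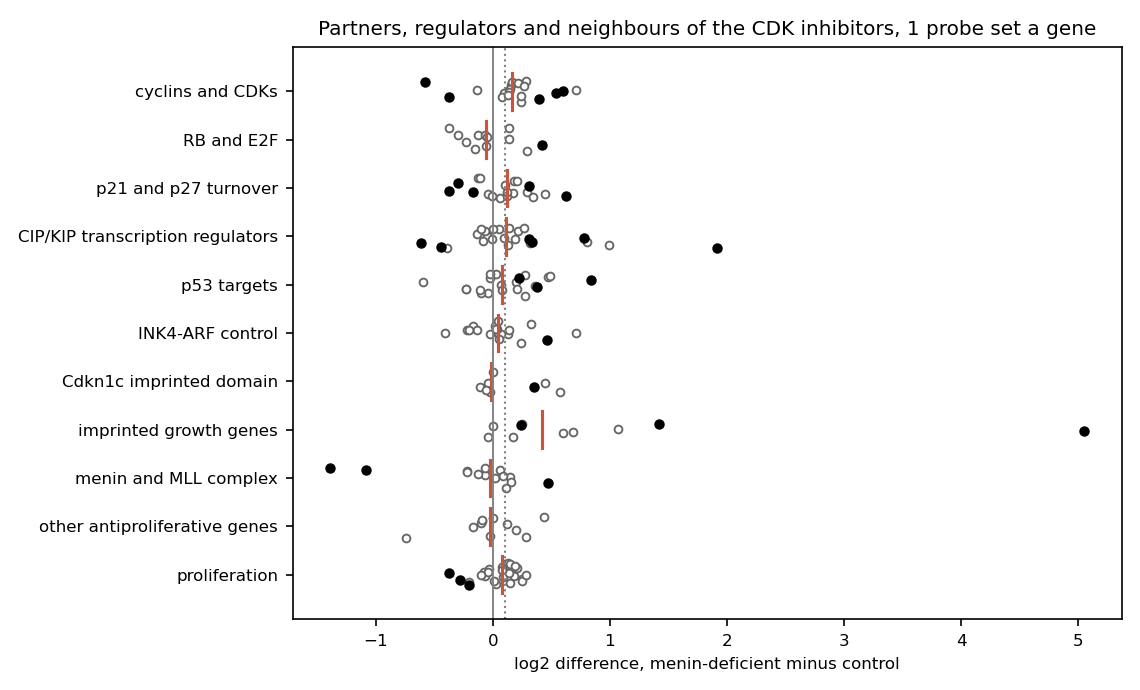
Log2 difference, menin-deficient minus control (horizontal axis), of each tested gene in 11 lists of genes around the CDK inhibitors (vertical axis), 1 probe set a gene. Filled points passed a limma adjusted p of 0.05, red bars are list medians, the solid line is 0 and the dotted line is the median of all tested genes (0.11). Ndn, at 5.05 among the imprinted growth genes, lies farthest from 0, and the other antiproliferative genes have no filled point.

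Of 24 tested genes that regulate the transcription of CIP/KIP inhibitors, 4 were higher, 2 lower and 18 not passed, beside 16.2% higher and 5.17% lower over all genes. Id1, a dominant-negative partner of E proteins and a known repressor of CDK inhibitor genes, rose from 4.21 ± 0.285 to 6.13 ± 0.289 (difference 1.92, limma adjusted p = 0.00201). Hes1, a Notch-induced repressor of CIP/KIP genes, rose by 0.78 (adjusted p = 0.0168). Egr1, an immediate-early transcription factor, fell by 0.61 (adjusted p = 0.00538). Smad4, the shared SMAD of TGF-beta signalling, was called lower on its brightest probe set (-0.44, adjusted p = 0.0114), while its others differed by 0.22 and -0.13. Foxo1 (-0.05, adjusted p = 0.800) and Foxo3 (0.14, adjusted p = 0.156), activators of Cdkn1b transcription, did not pass. The other Foxo1 probe sets differed by 0.33 and 0.46, and with _x_at and _s_at probe sets left out Foxo1 was called higher on the latter (limma adjusted p = 0.0497). In the fit of all probe sets, Tcf3 was called higher on 2 further probe sets (0.48 and 0.63, limma adjusted p = 0.0192 and 0.0178). Id2 was called higher there on a further probe set (1.24, adjusted p = 0.0310). The brightest probe sets of Tcf3 and Id2 differed by 0.27 and 0.19 and did not pass. After centring, 2 of the 24 were higher and 2 lower.

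Of 21 tested p53 targets other than Cdkn1a, 3 rose and 18 did not pass, beside 16.2% higher over all genes, with a median of 0.08, and after centring 1 rose and 2 fell. Zmat3, which encodes an RNA-binding zinc finger protein, rose from 5.74 ± 0.045 to 6.58 ± 0.414 (difference 0.84, limma adjusted p = 0.0237), a call lost without control replicate 1 or 4 or menin-deficient replicate 2 or 4 (0.0584 to 0.0627). Ei24 (0.22, adjusted p = 0.0175) and the DNA repair gene Xpc (0.38, adjusted p = 0.0196) were called higher but not after centring, and Xpc missed the threshold without control replicate 4 or menin-deficient replicate 2 (0.0511 to 0.0588). Mdm2, the p53 ubiquitin ligase and itself a p53 target, differed by 0.03 (adjusted p = 0.895), and its other probe set by -0.51 (adjusted p = 0.0422 in the fit of all probe sets). In that fit Ccng1 was called higher on a further probe set (0.48, limma adjusted p = 0.0458). Sesn1 (-1.03, adjusted p = 0.00846) and Rrm2b (-0.79 and -0.72, adjusted p = 0.0312 and 0.0369) were called lower on further probe sets. No probe set names Trp53 alone.

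Of 19 tested genes linked to the turnover and export of p21 and p27, 2 rose, 3 fell and 14 did not pass, with a median of 0.12. The list is not sorted by direction of action, so these counts do not say whether degradation rose or fell. Over all genes 16.2% were higher and 5.17% lower, and after centring 1 of the 19 rose and 3 fell. Fzr1, an activator of the anaphase-promoting complex, rose by 0.62 (limma adjusted p = 0.0135), and Ubac1, a subunit of a p27 ubiquitin ligase, rose by 0.31 (adjusted p = 0.00442) but not after centring. Skp1 (-0.37, adjusted p = 0.00737) and Rbx1 (-0.30, adjusted p = 0.0327), both subunits of SCF ubiquitin ligases, were called lower, and the other Skp1 probe set differed by 0.11. Cks1b, the SKP2 cofactor, was also called lower (-0.17, adjusted p = 0.0359), with its other probe set at 0.15. Leaving out any of the 8 arrays lost the Cks1b call (0.0512 to 0.0866), and leaving out any array but control replicate 4 or menin-deficient replicate 1 lost that of Rbx1 (0.0528 to 0.0836). Skp2, the SCF subunit that recognises p27, differed by -0.13 (adjusted p = 0.195). Dtl and Akt1 did not pass on their brightest probe sets. On a further probe set, in the fit of all probe sets, Dtl was called lower (-0.66, limma adjusted p = 0.00429). Akt1 was called higher there on a further probe set (0.40, adjusted p = 0.0475). The remaining Dtl probe sets ran from -0.96 to 0.12 and did not pass.

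Of 20 tested genes that control the INK4-ARF locus, chiefly Polycomb proteins, 1 rose and 19 did not pass. Over all genes 16.2% were higher and 5.17% lower, and after centring 1 of the 20 rose and 1 fell. These counts rest on the brightest probe set of each gene. In the fit of all probe sets, further probe sets of Suz12 (-1.37 and -1.88), Dmtf1 (-1.18) and Ets1 (-0.54) were called lower. Their limma adjusted p values were 0.00944 to 0.0329. Phc2, a Polycomb subunit, was called higher (0.46, limma adjusted p = 0.0193), with its other probe set at -0.27, but not without menin-deficient replicate 2 or 4 (0.0511 to 0.0568). The Polycomb repressors Bmi1 (0.05, adjusted p = 0.754) and Ezh2 (0.04, adjusted p = 0.615) did not pass. In the menin and MLL complex list, beside the same shares over all genes, 1 of 14 genes rose and 2 fell, Men1 being among those that fell. The MLL subunit Ash2l rose by 0.47 (adjusted p = 0.00559), Jund, whose product binds menin, fell by 1.08 (adjusted p = 0.0393), and Kmt2a, which encodes MLL, differed by 0.15 (adjusted p = 0.429). The Jund call was lost without control replicate 3 or any 1 menin-deficient array (adjusted p at least 0.0685). On their brightest probe sets, none of the 11 other antiproliferative genes passed in limma (2 had an unadjusted p under 0.05, 1 in each direction). In the fit of all probe sets, a further probe set of Btg1 was called lower (-0.52, limma adjusted p = 0.0263). One of Ccng1 was called higher there (0.48, adjusted p = 0.0458). Among the brightest probe sets, Klf2 (-0.74, adjusted p = 0.0746) and Gadd45b (0.43, adjusted p = 0.0925) had the lowest p values. Klf2 passed after centring.

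Of 16 listed genes of the imprinted domain around Cdkn1c on the array, 8 passed the filter. Of these 8, 1 was called higher, beside 16.2% over all genes. It was Cd81 (from 14.1 ± 0.031 to 14.5 ± 0.084, difference 0.35, limma adjusted p = 0.00527), which was not called after centring. Kcnq1ot1, the long non-coding RNA that silences Cdkn1c on the paternal allele, differed by -0.04 (adjusted p = 0.884). Slc22a18 and Phlda2, imprinted like Cdkn1c, were at the lowest value on all arrays. Of 10 tested imprinted growth genes from elsewhere in the genome, 3 rose and 7 did not pass, with a median of 0.42. After centring 2 rose. Over all genes 16.2% were higher and 5.17% lower. Ndn, which encodes necdin, rose from 4.80 ± 0.532 to 9.85 ± 0.192 (adjusted p = 0.000363), and Grb10, a growth-restraining adaptor, rose from 7.67 ± 0.335 to 9.09 ± 0.435 (adjusted p = 0.0108). Gnas was called higher (0.24, adjusted p = 0.0293) but not after centring, and not without any 1 of 6 arrays (control replicates 2, 3 and 4, menin-deficient replicates 2, 3 and 4; 0.0536 to 0.0727).

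Genes within 500 kb of the inhibitors were taken from RefSeq. Their counts are given without centring, beside 16.2% higher and 5.17% lower over all genes tested. Around Cdkn1a on chromosome 17, 5 of 17 tested genes rose and 12 did not pass, the risers including Rab44 (0.87) and Fgd2 (0.93). Around Cdkn1b on chromosome 6, 3 of 15 rose and 12 did not pass, and Lockd, a non-coding RNA gene next to Cdkn1b, differed by -0.40 (limma adjusted p = 0.0538). Around Cdkn1c on chromosome 7, 4 of 14 rose and 1 fell, and Mrgpre (1.33, adjusted p = 0.00414) moved most. The others that rose were Tspan32 (0.52, limma adjusted p = 0.00895), R74862 (0.47, adjusted p = 0.0168) and Cd81. Of 27 genes around Cdkn2d on chromosome 9, 2 rose and 2 fell. Those that fell were Col5a3, a collagen gene (-1.80, adjusted p = 0.0206), and Yipf2 (-0.94, adjusted p = 0.00527), and those that rose were Cdc37, which encodes a chaperone of CDK4 (0.43, adjusted p = 0.0239), and Mrpl4 (0.41). None of the 4 genes tested near Cdkn2c, 3 near Cdkn2a and 2 near Cdkn2b on chromosome 4 passed in limma, and 1 of those near Cdkn2c had an unadjusted p under 0.05.

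Profiles most like each inhibitor were ranked by the root mean square difference over the 8 arrays, after each profile was centred on its own mean (smaller is more alike). For Cdkn1a they were Tlcd2 (0.0909), Zfp287 (0.121) and Zfp707 (0.146). For Cdkn1b they were Slc43a2 (0.0938), 2610316D01Rik (0.0957) and Gnai3 (0.0959), the last 2 on _x_at probe sets. For Cdkn1c they were Rcn3 (0.0596), Kcnn4 (0.101) and Cd28 (0.103), of which Cd28, a T-cell costimulatory receptor, lay near the lowest value (2.49 in controls and 3.47 in menin-deficient arrays). Carhsp1, Prelid1 and Sptbn1 were nearest to Cdkn2c (0.0340 to 0.0497), and Clint1, Imp3 and Pqbp1 to Cdkn2d (0.0564 to 0.0588).

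Some markers of other blood cells were called higher in menin-deficient arrays. The counts of every list here are to be read beside 16.2% higher and 5.17% lower over all 11885 genes tested. After centring, 911 of all genes were higher and 971 lower. Of 9 tested T-cell genes 6 rose and 3 did not pass, and the mean log2 value of the 12 genes on the array was 4.58 to 4.81 in controls and 5.42 to 5.62 in menin-deficient arrays. Cd3e was at the lowest value on all arrays, and Cd3d and Cd4 were below the filter. After centring 5 T-cell genes rose, and with 1 array left out 4 to 6 rose. Of 10 tested NK-cell genes 3 rose and 7 did not pass (5.17 to 5.44 against 5.84 to 6.70, with Il2rb at the lowest value). Of 13 myeloid genes 3 rose and 10 did not pass (7.43 to 7.85 against 7.40 to 8.68), and of 10 plasmacytoid dendritic cell genes 2 rose and 8 did not pass (7.08 to 7.42 against 7.67 to 7.95). Centring left 3 NK-cell, 1 myeloid and 2 plasmacytoid dendritic cell genes higher. The NK-cell count was 1 to 4 with 1 array left out, being 1 without control replicate 1, 3 or 4 or menin-deficient replicate 2 or 4 and 2 without menin-deficient replicate 3. The myeloid count was 1 to 3, with 3 genes without menin-deficient replicate 1, 2 without control replicate 3 and 1 without any of the others. Of the remaining lists, 3 of 15 pro-B identity genes rose and 1 fell, 3 of 11 immature and mature B-cell genes rose and 1 fell, 1 of 6 plasma-cell genes rose and 2 fell, 1 of 10 stem and early progenitor genes rose and 2 fell, and 1 of 7 erythroid genes rose. After centring, 1 pro-B identity gene rose and 1 fell, 1 immature and mature B-cell gene rose and 2 fell, 2 plasma-cell and 2 stem and early progenitor genes fell with no rise, and no erythroid gene passed. Without menin-deficient replicate 2, 1 pro-B identity gene and 1 immature and mature B-cell gene rose. In sorted bulk RNA a change in the mix of cells and a change in RNA per cell cannot be told apart. The part of these cell types in the Cdkn1a, Cdkn1b and Cdkn1c differences was not tested.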

How the data were processed

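Total RNA of Fraction B pro-B cells was amplified once, labelled with biotin and put on arrays, per the labels' protocols. The authors deposited 1 table of log2 values (scale judged from the range). MAS5 and GCRMA, with no version, appear in the submitters' processing notes, and the sources used here do not say which made the table. Array medians ran from 3.29 to 3.50, no arrays were identical, and correlations between arrays over tested probe sets ran from 0.985 to 0.995.

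Groups and replicate numbers came from sample titles. Of 45037 probe sets (64 manufacturer controls left out), 34945 have 1 symbol in the platform annotation, 932 several and 9160 none, and only the first were named. Probe sets above the 40th percentile of their array (2.09 to 2.10) on at least 4 of 8 arrays were tested in limma 3.58.1 with lmFit and eBayes (under R 4.3.3, data.table version 1.17.8). Adjustment was by Benjamini-Hochberg, and 0.05 was the threshold. Adjusted p values are limma's: for inhibitor and Men1 probe sets from the fit of all probe sets, for other genes from a fit of 1 probe set a gene, and for pairs from a fit of the difference between 2 probe sets of a gene on each array. The fits were tested on simulated data.

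The inhibitors, the 20 gene and marker lists and the tests were chosen with earlier results of these data known. Named were every inhibitor probe set, Men1, up to 4 genes with the lowest p in each pathway list (up to 2 where none passed), genes with a direct bearing on an inhibitor, the 3 nearest profiles, and, chosen after their values were seen, neighbours within 500 kb. RefSeq (GRCm38.p6) gave promoters and neighbours. There were 21 alternatives: quantile normalization, centring, no filter or a 60th percentile filter, no _x_at and _s_at probe sets, averaged probe sets of a gene, trended and robust eBayes, array weights, a block on replicate number, a sex covariate, a 0.10 threshold, each array left out and, added after seeing the data, female mice alone. Plots were drawn with matplotlib 3.10.9 and tables handled with pandas 2.3.3 in Python 3.11.15.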

Additional observations from a re-analysis of the deposited data

Results flagged for a closer look

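None of the 7 tested CDK inhibitor probe sets had an array standing apart from the rest of its group. Among 102 groups of 4 arrays checked for the inhibitors and the named genes, 6 had 1 array whose gap to the nearest other exceeded Dixon's 95% critical value for the gap as a share of the group's range, and chance alone flags about 1 in 20 groups. In Smad4, control replicate 1 was at 13.53 while the other controls lay between 13.34 and 13.36, and menin-deficient replicate 4 was at 13.16 while the rest of its group lay between 12.87 and 12.91. In Ccnd2, control replicate 2 was at 13.18 and the other controls at 12.57 to 12.59. In Bmi1, menin-deficient replicate 3 was at 12.47 and the others at 12.83 to 12.88. In Phc2, menin-deficient replicate 1 was at 11.18 and the others at 11.34 to 11.36. In Mdm2, control replicate 2 was at 10.68 and the other controls at 10.95 to 10.99.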

How the results depend on the processing

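Cdkn1a 1421679_a_at and Cdkn1c kept their direction and call under all 20 alternatives, except that Cdkn1a missed the threshold in female mice alone, and Cdkn1b 1434045_at kept its direction under all 20 and its call under 12. Cdkn1a 1424638_at passed with array weights (0.44, limma adjusted p = 0.0435) and without control replicate 3. Cdkn2c (0.03 to 0.17), Cdkn2d (0.02 to 0.23) and Cdkn1b 1419497_at (-0.13 to 0.14, changing sign) never passed. Of the inhibitor probe sets, 2 to 3 passed with 1 array left out and 1 passed in female mice alone. All probe sets called (3808) became 1935 with no filter, 5902 at a threshold of 0.10, 389 in female mice and 1796 to 3375 with 1 array left out. Genes called (2536) became 1673 with no filter, 639 in female mice and 1413 to 2269 with 1 array left out. Pairs called (1731) became 936 without _x_at and _s_at probe sets, 2727 at 0.10, 167 in female mice and 761 to 1570 with 1 array left out. Among the runs with 1 array left out, the lowest of these 3 counts came without menin-deficient replicate 2. Same-numbered arrays did not deviate together (correlations -0.26 to 0.08). With 4 arrays in each group these correlations cannot show that same-numbered mice were unrelated or handled apart. With the replicate block 1083 probe sets, 1328 genes and 860 pairs passed. Without _x_at and _s_at probe sets, Ccne1 (0.25), Cdc20 (0.24), Foxo1 (0.46), Igll1 (-0.12) and Mcm5 (0.16) changed direction, because another probe set stood for the gene. The calls of Ccnd2 and Cks1b were lost under 14 of 21 alternatives each, Gnas under 13, Kif11 under 11, Rbx1 under 10 and Ccne2 and Jund under 9 each. With 5 female mice the test has fewer samples. The lowest value hides differences in dim genes, Cdkn2a and Cdkn2b included.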
